A study of Mus musculus with 12 samples.

Results

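Immediate early genes are transcribed within minutes of a stimulus, from transcription factors that are already in the cell, so they need no new protein to be switched on. Growth factors, cytokines and stress reach them largely through MAP kinases, which activate serum response factor and its partners and the CREB and ATF proteins at their promoters. Many of their products are transcription factors themselves. Fos and Jun proteins pair to form AP-1, which in epidermis acts on keratinocyte growth, differentiation and inflammatory genes, while others, such as the phosphatase DUSP1, shut the kinases off again. The 10 genes described here were chosen by name, with earlier results of these data known. They are the AP-1 subunits *Fos*, *Fosb*, *Fosl1*, *Jun* and *Junb*, the transcription factors *Egr1* and *Atf3*, the early response genes *Ier2* and *Ier3*, and *Dusp1*. All 10 were among the 21247 genes of the count table, and all 10 were among the 20454 that were tested.

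RNA-seq was performed on biopsies of periocular skin from 6-week-old BALB/c mice, with 4 libraries labelled ft/ft and 4 labelled ft/ftMyD88-/-. Mice of both groups are homozygous for the ft allele, which inactivates filaggrin, a structural protein of the outer epidermis. The ft/ftMyD88-/- mice come from a cross with MyD88-deficient mice, and their loss of MyD88, which relays signals from Toll-like and IL-1 family receptors, is global rather than limited to a cell type. The methods give the ft line of that cross as free of the matted mutation, which lies in *Tmem79*. The study reports that, by the age sampled, all ft/ftMyD88-/- mice had inflamed periocular skin, while ft/ft mice had no visible inflammation. It also reports a thicker epidermis in ft/ftMyD88-/- mice. WT libraries were not analysed here, and no value is compared with unmutated skin.

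Libraries labelled ft/ft held 18941705 to 29255129 counts and those labelled ft/ftMyD88-/- held 15802957 to 27037997. Some transcripts went against the labels or differed between the groups in ways the labels do not give. *Myd88* itself was at 30.7 ± 4.74 CPM (counts scaled for library size and TMM factor, SD, n = 4) in ft/ft and 41.2 ± 7.29 (SD, n = 4) in ft/ftMyD88-/- (edgeR adjusted p = 0.0484). Gene counts do not show whether an exon is missing, so *Myd88* does not check the labels, on which each direction given rests. The labels give female mice, but *Xist* had 1 count at most in each ft/ft library and 567 to 1964 in each ft/ftMyD88-/- library, while the Y-linked *Ddx3y* had 1095 to 1864 counts in ft/ft and 0 to 11 in ft/ftMyD88-/-. Sex and genotype therefore cannot be told apart in any difference given here. The same holds for genotype and the skin inflammation that the study reports for ft/ftMyD88-/- and not for ft/ft mice. The part of that inflammation in the early gene values was not tested. *Tmem79* was at 59.2 CPM in ft/ft and 16.4 CPM in ft/ftMyD88-/- (edgeR adjusted p = 5.08e-07), and *Flg*, the filaggrin gene, at 103 and 242 CPM (edgeR adjusted p = 0.12). Markers of basal keratinocytes summed to 13887 to 16999 CPM in ft/ft and 9740 to 11940 in ft/ftMyD88-/-, and markers of skeletal muscle summed to 8520 to 11466 and 3268 to 6264 CPM. Summed markers of differentiated keratinocytes (16308 to 21287 and 11734 to 14611 CPM), fibroblasts (14019 to 29056 and 6962 to 10330), sebocytes (18961 to 21395 and 11457 to 16845) and endothelium (239 to 296 and 181 to 235) also did not overlap and were lower in ft/ftMyD88-/-. Those of hyperproliferative keratinocytes overlapped (2784 to 3573 and 3208 to 5403), with *Krt17* as most of the sum. *Krt16* on that list did not overlap, at 104 and 626 CPM (edgeR adjusted p = 0.053), while *Krt6a*, *Krt6b* and *Krt17* did. *Krt16* was called higher with DESeq2, limma voom, filterByExpr and library size alone, and not with RLE, no filter or the replicate block. By edgeR, 4 of 6 basal, 3 of 6 differentiated keratinocyte and 3 of 6 fibroblast markers were called lower. So were 6 of 8 sebocyte, 2 of 6 endothelial and 7 of 9 muscle markers, against 12.3% of all genes tested, and none was called higher. Collagens made up most of the fibroblast sum, *Scd1* of the sebocyte sum. *Krt14* (log2 fold change 0.05), *Ivl* (0.10), *Pdgfra* (0.31), *Lum* (0.09) and *Elovl3* (0.18) had higher means in ft/ftMyD88-/- and were not called. The part of all these differences in the early gene values was not tested.

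The promoters of 4 of the genes are shown because their transcripts bear on what follows. *Fos* and *Dusp1* varied together from mouse to mouse, though less closely than *Fosb* and *Atf3*, whose promoters are not printed. *Junb* differed between the groups by the test where its relative *Jun* did not. The ratio of *Junb* to *Jun* did not pass its own test (exact permutation p = 0.0571, 0.171 after Benjamini-Hochberg adjustment). The part of the motifs in these values was not tested. Each stretch is the 150 bases before the RefSeq start of the gene (GRCm38.p6), with matches to 4 short motifs in capitals. The motifs are TGACG, the core of the cyclic AMP response element that CREB and ATF proteins bind; TGACGTCA, its full palindrome, which holds TGACG on both strands; TGACATCA, the AP-1-like element of *Jun*; and TATAA, the core of the TATA box.
Fos, chr12:85473740-85473889, plus strand: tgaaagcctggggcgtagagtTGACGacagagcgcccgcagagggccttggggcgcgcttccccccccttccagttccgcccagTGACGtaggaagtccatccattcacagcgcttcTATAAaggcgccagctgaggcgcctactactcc
Dusp1, chr17:26508473-26508622, minus strand: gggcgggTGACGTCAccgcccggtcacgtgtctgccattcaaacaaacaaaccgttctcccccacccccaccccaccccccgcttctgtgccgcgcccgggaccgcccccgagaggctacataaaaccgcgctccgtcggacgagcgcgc
Junb, chr8:84978749-84978898, minus strand: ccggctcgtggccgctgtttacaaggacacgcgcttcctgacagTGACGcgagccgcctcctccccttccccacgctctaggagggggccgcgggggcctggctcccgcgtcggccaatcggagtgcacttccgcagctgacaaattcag
Jun, chr4:95052223-95052372, minus strand: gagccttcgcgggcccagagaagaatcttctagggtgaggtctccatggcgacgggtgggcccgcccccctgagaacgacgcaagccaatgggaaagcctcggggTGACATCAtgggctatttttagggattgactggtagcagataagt

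Of the 10 genes, 7 had a promoter in the reference table. Both strands of the 250 bases before the start were searched. TGACG was found in 5 of the 7, those of *Fos*, *Fosb*, *Junb*, *Atf3* and *Dusp1*, and in 24.7% of the 12161 promoters of tested genes. In *Fos* it stood 66 and 129 bases before the start, with TATAA 33 bases before it. TATAA was also in *Ier3*, and in 14.4% of the promoters of tested genes. The palindrome TGACGTCA was found in *Dusp1* alone, 143 bases before the start, and in 2.53% of the promoters of tested genes. TGACATCA was found in *Jun* alone, 45 bases before the start, against 1.5% of those promoters. The AP-1 site TGACTCA and the CArG box, which serum response factor binds, were in none of the 7 windows and in 3.62% and 1.23% of the promoters of tested genes. These matches are letters in a window and were not measured as binding sites. Sites more than 250 bases before the start, and the promoters of *Fosl1*, *Egr1* and *Ier2*, were not searched.

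The genes are short, which the choice of members did not use. By GENCODE M21 (GRCm38), 5 of the 10 span less than 5000 bases, as 14.6% of the 16093 tested genes found in that annotation do. *Jun* (chromosome 4, 95049034 to 95052222) and *Ier2* (chromosome 8, 84661331 to 84662852) are a single exon. The exceptions in span are *Atf3* (chromosome 1, 191170296 to 191218039) and *Dusp1* (chromosome 17, 26505590 to 26562128), whose longest annotated transcripts begin far upstream. On the opposite strand, *Fosl1* (chromosome 19, 5447547 to 5455946) shares 2767 bases with *Ccdc85b*, *Junb* 351 bases with *Prdx2*, *Jun* 689 with *Junos*, and *Dusp1* 640 with *Ergic1*. The library kit that the methods name does not mark strand, so reads of these overlapping stretches cannot be assigned with certainty.

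Levels were compared between genes as CPM per kilobase of exon, which corrects for gene length where reads fall along whole transcripts, as in the TruSeq protocol of the methods. The labels name a single-cell protocol for fixed tissue instead, under which counts need not scale with length, so the order of the genes and the family shares given per exonic base assume the former. In ft/ft, *Junb* stood highest at 88.0 ± 3.85 (SD, n = 4), followed by *Ier2* at 50.4 ± 2.15 and *Ier3* at 42.9 ± 7.88, whose libraries overlapped. *Jun* (29.2 ± 1.99) and *Dusp1* (28.0 ± 3.47) came next and overlapped as well, and *Egr1* was at 13.6 ± 1.11. *Fos* was at 6.27 ± 2.25 and *Atf3* at 4.42 ± 1.63, and the lowest were *Fosb* at 1.14 ± 0.522 and *Fosl1* at 0.836 ± 0.306, both pairs with overlapping libraries. The order in ft/ftMyD88-/- was the same except that *Egr1* (24.6 ± 7.09) stood above *Dusp1* (22.3 ± 2.95), again with overlapping libraries. Thus the classical member *Fos* was among the less abundant of the 10 in both groups, and *Junb* was the most abundant.

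Between the groups, 4 of the 10 genes were higher in ft/ftMyD88-/- and none was lower at an edgeR adjusted p under 0.05. Of all genes tested, 10.9% were called higher and 12.3% lower by the same rule, 23.3% in either direction. At an unadjusted p under 0.05, 7 of the 10 passed, against 36.9% of all genes tested, among them *Dusp1*, the only one with a lower mean in ft/ftMyD88-/-. The 4 called genes were *Fosl1*, *Junb*, *Egr1* and *Ier2*, and they were also the 4 whose libraries did not overlap between the groups, against 26.7% of all genes tested in either direction and 12.5% with ft/ftMyD88-/- higher. The median log2 fold change (ft/ftMyD88-/- over ft/ft) was 0.67 over the 10 genes and 0.01 over all genes tested. These 4 stayed called in each of the 15 alternative fits, those that left out a library included. Since the 10 genes were chosen with earlier results of these data known, setting them beside all genes is not a test.

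**Figure D1:**
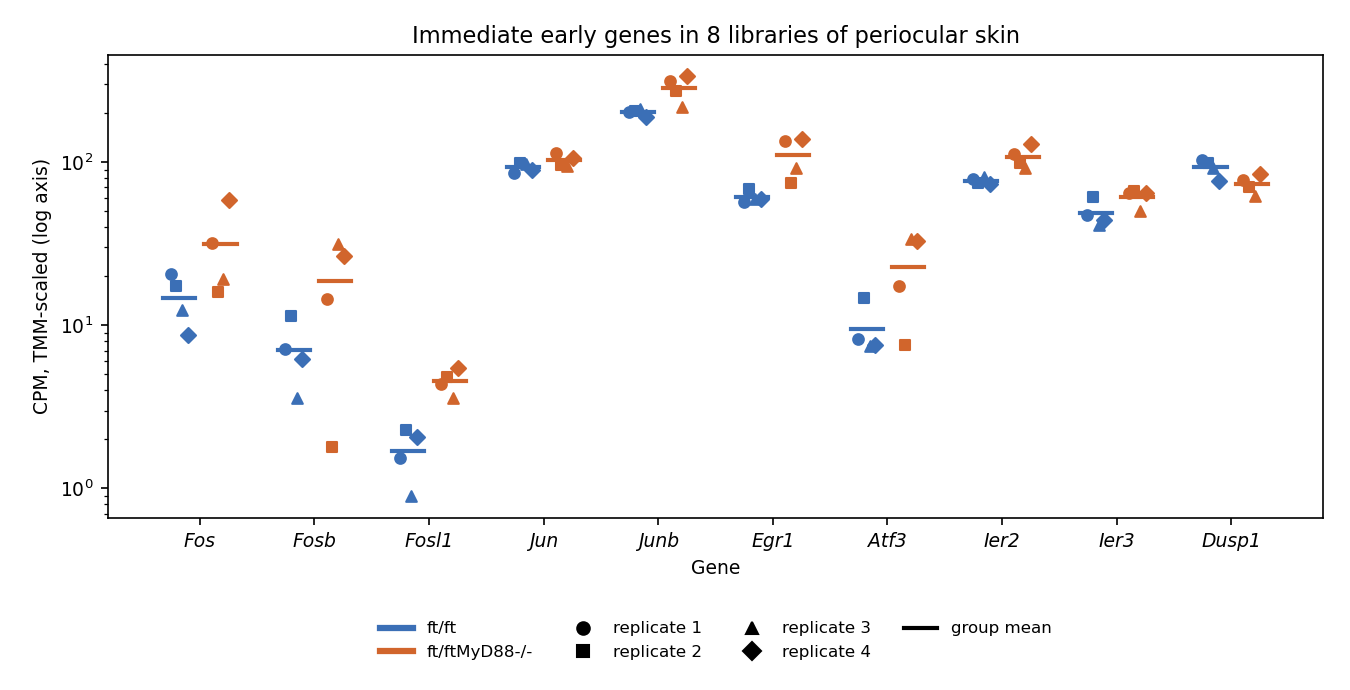
TMM-scaled CPM (log axis) of the 10 immediate early genes in each of the 8 libraries, with blue for ft/ft, orange for ft/ftMyD88-/-, a marker shape for each replicate number and a bar at the group mean. All orange points lie above all blue ones for *Fosl1*, *Junb*, *Egr1* and *Ier2*, while *Fos*, *Fosb* and *Atf3* overlap, with ft/ftMyD88-/- replicate 2 at 1.8 CPM of *Fosb*.

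*Fos*, the partner for which AP-1 is best known, was at 20.5, 17.5, 12.3 and 8.67 CPM in ft/ft replicates 1 to 4 and at 31.7, 16, 19.3 and 58.7 in ft/ftMyD88-/- replicates 1 to 4. Its groups overlapped, and the highest library, ft/ftMyD88-/- replicate 4, stood well above the other 7. The log2 fold change was 1.08 ± 0.489 (SE, with an edgeR adjusted p = 0.163), and without that library it was 0.61 (edgeR adjusted p = 0.27).

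*Fosb*, a close relative of *Fos*, was at 7.2, 11.4, 3.57 and 6.21 CPM in ft/ft and at 14.5, 1.8, 31.5 and 26.5 in ft/ftMyD88-/-. Of the 4 ft/ftMyD88-/- libraries, 3 lay above every ft/ft library and replicate 2 lay below all of them. The log2 fold change was 1.37 ± 0.815 (SE, with an edgeR adjusted p = 0.281), and without ft/ftMyD88-/- replicate 2 it was 1.75 and passed the test (edgeR adjusted p = 0.0238).

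*Fosl1*, which encodes FRA-1, an AP-1 subunit of growing and migrating keratinocytes, was at 1.54, 2.29, 0.892 and 2.07 CPM in ft/ft and at 4.38, 4.85, 3.57 and 5.49 in ft/ftMyD88-/-. These were 16 to 63 and 90 to 132 counts, so the gene was scarce in both groups but separated in every library. It was 2.63-fold higher in ft/ftMyD88-/- (log2 fold change 1.4 ± 0.257 SE, edgeR adjusted p = 0.00265), and the log2 fold change ran from 1.2 to 1.57 with each library left out in turn.

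*Jun*, the main partner of the Fos proteins, was at 85.7, 99.2, 97.6 and 89.9 CPM in ft/ft and at 113, 96.6, 95.2 and 105 in ft/ftMyD88-/-. The groups overlapped and differed little (log2 fold change 0.14 ± 0.0883 SE, edgeR adjusted p = 0.276). With library size alone in place of TMM the log2 fold change was 0.32 and passed the test (edgeR adjusted p = 0.0176), a scaling that raised the median log2 fold change over genes by 0.177.

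*Junb*, a Jun protein that restrains keratinocyte growth and inflammation in skin, was at 204, 206, 210 and 190 CPM in ft/ft and at 313, 274, 216 and 336 in ft/ftMyD88-/-. The ft/ft libraries were close together, and ft/ftMyD88-/- replicate 3 lay just above them. *Junb* was 1.41-fold higher in ft/ftMyD88-/- (log2 fold change 0.49 ± 0.123 SE, edgeR adjusted p = 0.0134).

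*Atf3*, a stress-induced repressor that can pair with Jun proteins, was at 8.27, 14.8, 7.47 and 7.59 CPM in ft/ft and at 17.3, 7.61, 34 and 32.6 in ft/ftMyD88-/-. As for *Fosb*, 3 ft/ftMyD88-/- libraries lay above all of ft/ft and replicate 2 did not. The log2 fold change was 1.26 ± 0.509 (SE, with an edgeR adjusted p = 0.125). It passed without ft/ftMyD88-/- replicate 2 (1.55, edgeR adjusted p = 0.0113) and with DESeq2 on all 8 libraries (1.27, DESeq2 adjusted p = 0.0441).

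*Egr1*, a zinc finger transcription factor switched on by serum response factor, was at 56.5, 68.0, 59.5 and 59.3 CPM in ft/ft and at 135, 74.3, 92.3 and 139 in ft/ftMyD88-/-. Every ft/ftMyD88-/- library was above every ft/ft library, with replicate 2 again the lowest of its group. The gene was 1.81-fold higher (log2 fold change 0.85 ± 0.184 SE, edgeR adjusted p = 0.00836).

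*Ier2*, which encodes a nuclear protein of the early growth factor response, was at 78.2, 74.7, 80.5 and 73.3 CPM in ft/ft and at 111, 98.4, 91.9 and 129 in ft/ftMyD88-/-. The narrow ft/ft range ended below the lowest ft/ftMyD88-/- library, and the gene was 1.4-fold higher (log2 fold change 0.49 ± 0.106 SE, edgeR adjusted p = 0.00615). *Ier3*, an early gene that acts on survival and NF-kB signaling, was at 47.2, 61.4, 41.2 and 44.3 CPM in ft/ft and at 65.1, 66.2, 50.2 and 64.3 in ft/ftMyD88-/-. It overlapped between the groups through ft/ft replicate 2 and ft/ftMyD88-/- replicate 3 (log2 fold change 0.34 ± 0.131 SE, edgeR adjusted p = 0.0798). Without ft/ft replicate 2 it passed (0.47, edgeR adjusted p = 0.0128), and so it did without ft/ftMyD88-/- replicate 3 (0.44, edgeR adjusted p = 0.0289) and with library size alone (0.52, edgeR adjusted p = 0.0109).

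*Dusp1*, which dephosphorylates p38, JNK and ERK and so ends the signal that induces these genes, was at 102, 99, 92.5 and 76.6 CPM in ft/ft and at 77.7, 70.4, 62.2 and 85.0 in ft/ftMyD88-/-. The groups overlapped through ft/ft replicate 4 and ft/ftMyD88-/- replicates 1 and 4. The log2 fold change was -0.33 ± 0.117 (SE, with an edgeR adjusted p = 0.0605). It passed without ft/ft replicate 4 (-0.41, edgeR adjusted p = 0.0329) and without ft/ftMyD88-/- replicate 4 (-0.39, edgeR adjusted p = 0.0472), while library size alone brought it to -0.15 (edgeR adjusted p = 0.314).

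The genes differed in how much they varied among mice of one group. In ft/ft the SD of log2 CPM was 0.0613 for *Ier2* and 0.0641 for *Junb*, and it was 0.551 for *Fos* and 0.682 for *Fosb*. Among the 13508 genes with a mean of at least 50 counts the median SD was 0.156 in ft/ft and 0.165 in ft/ftMyD88-/-. In ft/ftMyD88-/- the SD was 1.87 for *Fosb* and 1.01 for *Atf3*, at the 99.5th and 98.5th percentile of those genes, and 0.837 for *Fos*, at the 98.1st. These genes were also among the most variable in ft/ft, at the 98.6th, 96.1st and 97.6th percentile. *Egr1* went from the 31.6th percentile in ft/ft to the 92.9th in ft/ftMyD88-/-, and *Junb* from the 9.28th to the 79.3rd. For 8 of the 10 genes the SD was larger in ft/ftMyD88-/-, though by little for *Jun* and *Dusp1*, the exceptions being *Fosl1* and *Ier3*. The share of all genes with a larger SD in ft/ftMyD88-/- is not given here. With 4 libraries a group these SDs are imprecise, and their difference was not tested.

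**Figure D2:**
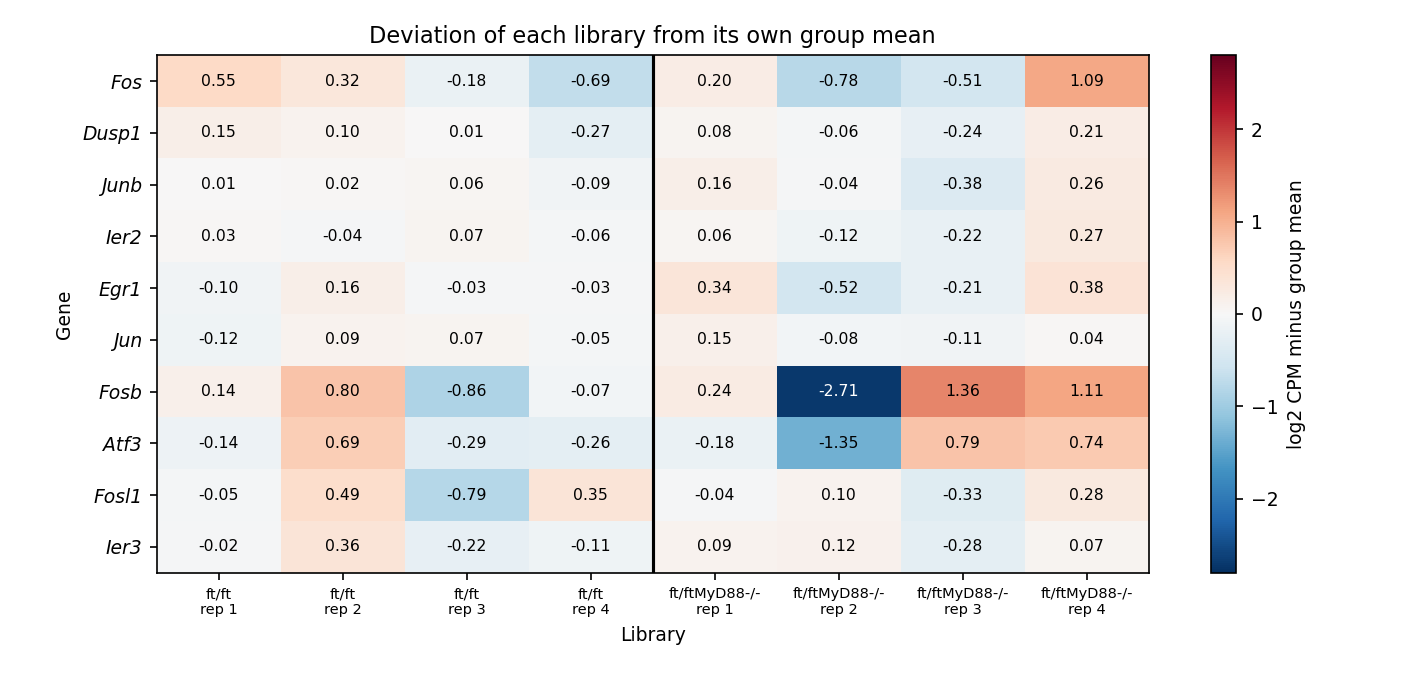
Difference of log2 CPM between each library (columns, ft/ft left of the line and ft/ftMyD88-/- right of it) and its own group mean, for the 10 genes (rows). ft/ftMyD88-/- replicate 4 is above its group mean in all 10 genes, and ft/ftMyD88-/- replicate 2 falls to -2.71 for *Fosb* and -1.35 for *Atf3*.

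Within the groups most pairs of the 10 genes deviated in the same direction. Pearson's r of deviations from the group mean over the 8 libraries was positive for 41 of the 45 pairs of genes, with a median of 0.43. The highest was that of *Fosb* and *Atf3* (r = 0.96), followed by *Junb* and *Ier2* (0.91) and *Fos* and *Dusp1* (0.88). *Fosb* and *Atf3* showed r near 0 with *Junb* (-0.07 for both). These values describe 8 libraries that share depth and scaling and are given without a test. The share of positive pairs among all genes is not given here. For 14 of the 45 pairs the sign of r differed between the groups of 4 libraries, among them *Ier3* with *Fosb* and with *Atf3*, which the pooled r does not show. *Dusp1* followed *Fos* from mouse to mouse although its group mean was lower in ft/ftMyD88-/- where that of *Fos* was higher.

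The libraries at the ends were the same for several genes. ft/ftMyD88-/- replicate 4 was above its group mean for 10 of the 10 genes, by 1.09 on the log2 scale for *Fos*, and it was the smallest library. In ft/ft, replicate 2 was above its group mean for 9 of the 10. That library also had the highest summed level of neutrophil markers in its group, at 250.1 CPM against 21.6 to 36.4 in the other 3, and ft/ftMyD88-/- replicate 4 had the highest of its group, at 959 CPM against 399 to 705. Neutrophil markers were not alone in this. Both libraries were also the highest of their groups in summed markers of hyperproliferative keratinocytes (3573 and 5403 CPM), differentiated keratinocytes (21287 and 14611) and macrophages and monocytes (599 and 935). For T cell markers ft/ft replicate 2 was the lowest of its group, at 16.7 CPM. ft/ftMyD88-/- replicate 2, the library low in *Fosb*, *Atf3*, *Fos* and *Egr1*, held 705 CPM of neutrophil markers. Of the 7 markers on that list 5 were in the table, *Ly6g* and *Retnlg* were not, and 1, *Csf3r*, was called higher in ft/ftMyD88-/- by edgeR (adjusted p = 0.0476, and 0.0526 without the filter). DESeq2 and limma voom also called *S100a8* (adjusted p = 0.0193 and 0.00469) and *S100a9* (0.0159 and 0.00425) higher. Most of the sum in ft/ftMyD88-/- and in ft/ft replicate 2 came from *S100a8* and *S100a9*, which stressed keratinocytes also make. The part of neutrophils or of the other cell types named here in the early gene values was not tested.

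Since pairs of genes within a library need no scaling, 3 ratios were compared with a two-sided exact permutation test over 8 libraries, whose smallest possible p is 0.0286. The log2 ratio of *Junb* to *Jun* counts was 1.12 ± 0.0887 (SD, n = 4) in ft/ft and 1.46 ± 0.202 (SD, n = 4) in ft/ftMyD88-/-. The difference of 0.33 did not pass (exact p = 0.0571, 0.171 after Benjamini-Hochberg adjustment over the 3 ratios), and ft/ftMyD88-/- replicate 3, at 1.18, lay within the ft/ft range of 1.05 to 1.25. Without that library the groups did not overlap (0.42, exact p = 0.0286, the smallest possible there too). The ratio of *Fosl1* to *Fos* differed by 0.5 (exact p = 0.429, adjusted 0.514) and that of *Ier3* to *Ier2* by -0.13 (exact p = 0.514, adjusted 0.514), both within the spread of the libraries.

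*Fosl2* and *Jund*, the Fos and Jun proteins outside the 10, complete the 2 families. *Fosl2* (FRA-2) was at 237 CPM in ft/ft and 220 CPM in ft/ftMyD88-/- (log2 fold change -0.10, edgeR adjusted p = 0.545). *Jund* fell from 38.8 to 30.5 CPM (log2 fold change -0.34 ± 0.0898 SE, edgeR adjusted p = 0.0166), and with library size alone it did not pass (-0.17, edgeR adjusted p = 0.174). Per exonic base, *Fosl2* made up 68.7% to 80.6% of the Fos family transcripts in ft/ft libraries and 38.6% to 69.9% in ft/ftMyD88-/- libraries. *Fos* made up 12.6% to 25.6% in ft/ft and 21.6% to 48.0% in ft/ftMyD88-/-, the latter in replicate 4. *Fosl1* stayed a small part, at 1.53% to 3.47% and 4.77% to 7.59%, without overlap between the groups. *Junb* made up 62.3% to 63.5% of the Jun family transcripts in ft/ft and 66.1% to 73.9% in ft/ftMyD88-/-, and *Jund* 16% to 17.2% and 9.35% to 12.8%. Neither overlapped, and *Jun* did, at 19.3% to 21.7% and 16.8% to 21%. These shares do not depend on how libraries were scaled, and they were not tested. Shares of a family depend on each other, so a fall in *Jund* alone raises those of *Junb* and *Jun*. The ratio of *Junb* to *Jun*, given above, did not pass its test.

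**Figure D3:**
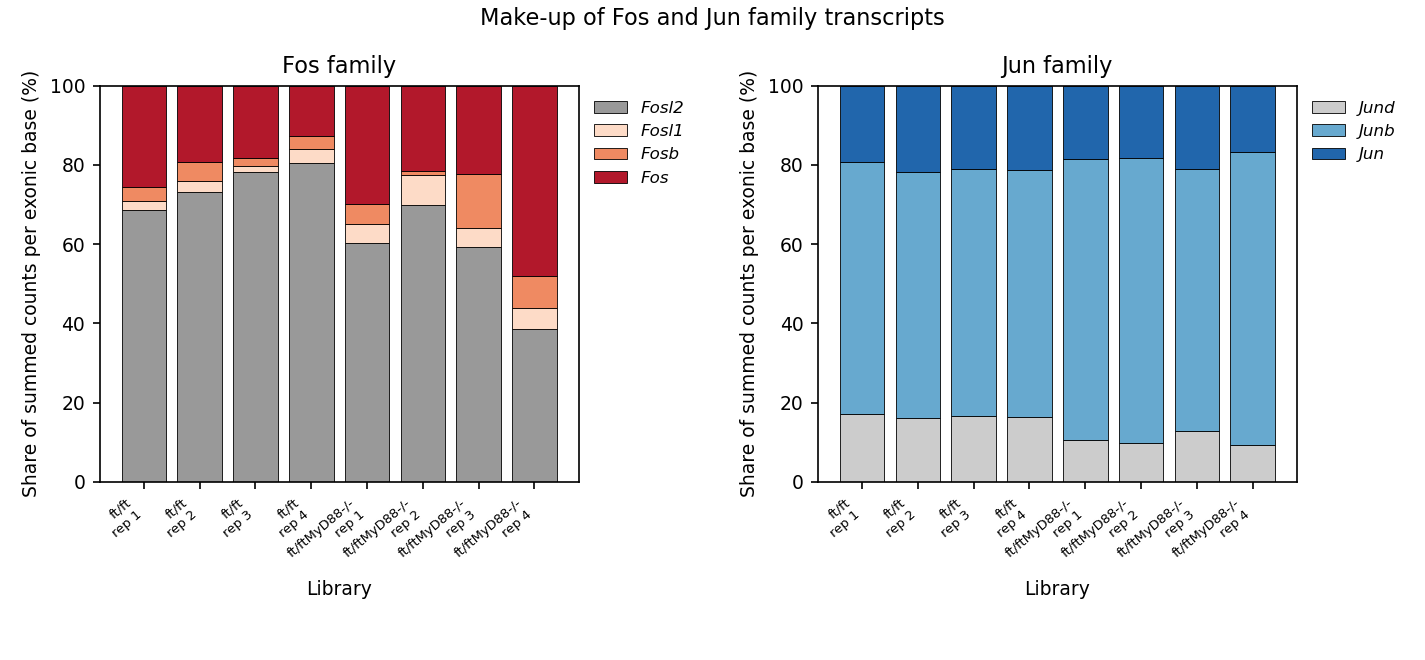
Share (%) of each gene in the summed counts per exonic base of the Fos family (left) and the Jun family (right), 1 bar for each of the 8 libraries. *Fosl2* takes 68.7% to 80.6% in ft/ft and 38.6% to 69.9% in ft/ftMyD88-/-, and *Junb* is the largest part of the Jun family in all 8 libraries.

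Other early response genes were read from 5 lists of genes, apart from the 10. Of their 57 tested genes, 15 were higher and 3 lower in ft/ftMyD88-/- at an edgeR adjusted p under 0.05, with a median log2 fold change of 0.13. The shares over all genes tested, 10.9% higher and 12.3% lower, stand behind this and each list count that follows. Among the 11 partners and relatives of AP-1, 4 rose and none fell. They were *Batf* (log2 fold change 1.55, edgeR adjusted p = 4.48e-04) and *Batf3* (1.09, 0.0051), AP-1 proteins of lymphocytes and dendritic cells, *Atf4* (1.01, 2.64e-05), the effector of the integrated stress response, and the small Maf protein *Mafg* (0.25, 0.04). Summed markers did not overlap for T cells, at 16.7 to 22.4 CPM in ft/ft and 28.2 to 37.7 in ft/ftMyD88-/-, nor for macrophages and monocytes, at 467 to 599 and 656 to 935, with 6 of 7 and 3 of 8 markers called higher. *Lyz2* (260 and 514 CPM) made up most of the difference in the macrophage and monocyte sum, and *Fcgr1* and *Ccr2* were the others called. *Cd68* (log2 fold change -0.11), *Csf1r* (-0.21) and *Adgre1* (-0.03) had lower means in ft/ftMyD88-/- and were not called. The part of T cells, macrophages and monocytes in the calls of AP-1 partners was not tested. In bulk skin a change in the number of such cells and a change in RNA per cell cannot be told apart.

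Of the 14 other genes on the list of Egr, Nr4a, Klf and related factors, 2 rose, *Klf10* (log2 fold change 0.41, edgeR adjusted p = 0.00308) and the orphan receptor *Nr4a3* (0.52, 0.032), a share near that over all genes. Among the relatives of *Egr1*, *Egr2* was at 81.8 and 91.7 CPM (edgeR adjusted p = 0.299) and *Egr3* at 146 and 141 CPM (0.76) in ft/ft and ft/ftMyD88-/-, and *Egr4* had too few counts to compare, at 0 to 6 and 2 to 6. *Nr4a1* (0.38, 0.319), *Klf4* (-0.05, 0.748), *Klf6* (-0.10, 0.541) and *Myc* (0.19, 0.223) did not pass either. With library size alone, *Egr2* and *Myc* passed.

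Among 16 other immediate early genes, 5 rose and 1 fell. *Arc* rose most, from 3.05 to 11.8 CPM (log2 fold change 1.93, edgeR adjusted p = 0.00259), and is best known as an activity-dependent gene of neurons. The growth arrest genes *Gadd45g* (1.38, 5.49e-04) and *Gadd45b* (0.71, 0.001), the relative of *Ier2* called *Ier5* (0.35, 0.024) and the matrix protein gene *Cyr61* (0.54, 0.0161) rose too. *Ctgf*, which like *Cyr61* encodes a CCN matrix protein, fell from 59.0 to 37.1 CPM (-0.67, 0.0111). *Zfp36* (0.10, 0.556), *Btg2* (0.24, 0.0654) and *Ppp1r15a* (0.35, 0.116) did not pass. *Btg2* passed with DESeq2 (adjusted p = 0.0393) and with filterByExpr (adjusted p = 0.0466), and with library size alone 10 of the 16 were called higher in place of 5.

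**Figure D4:**
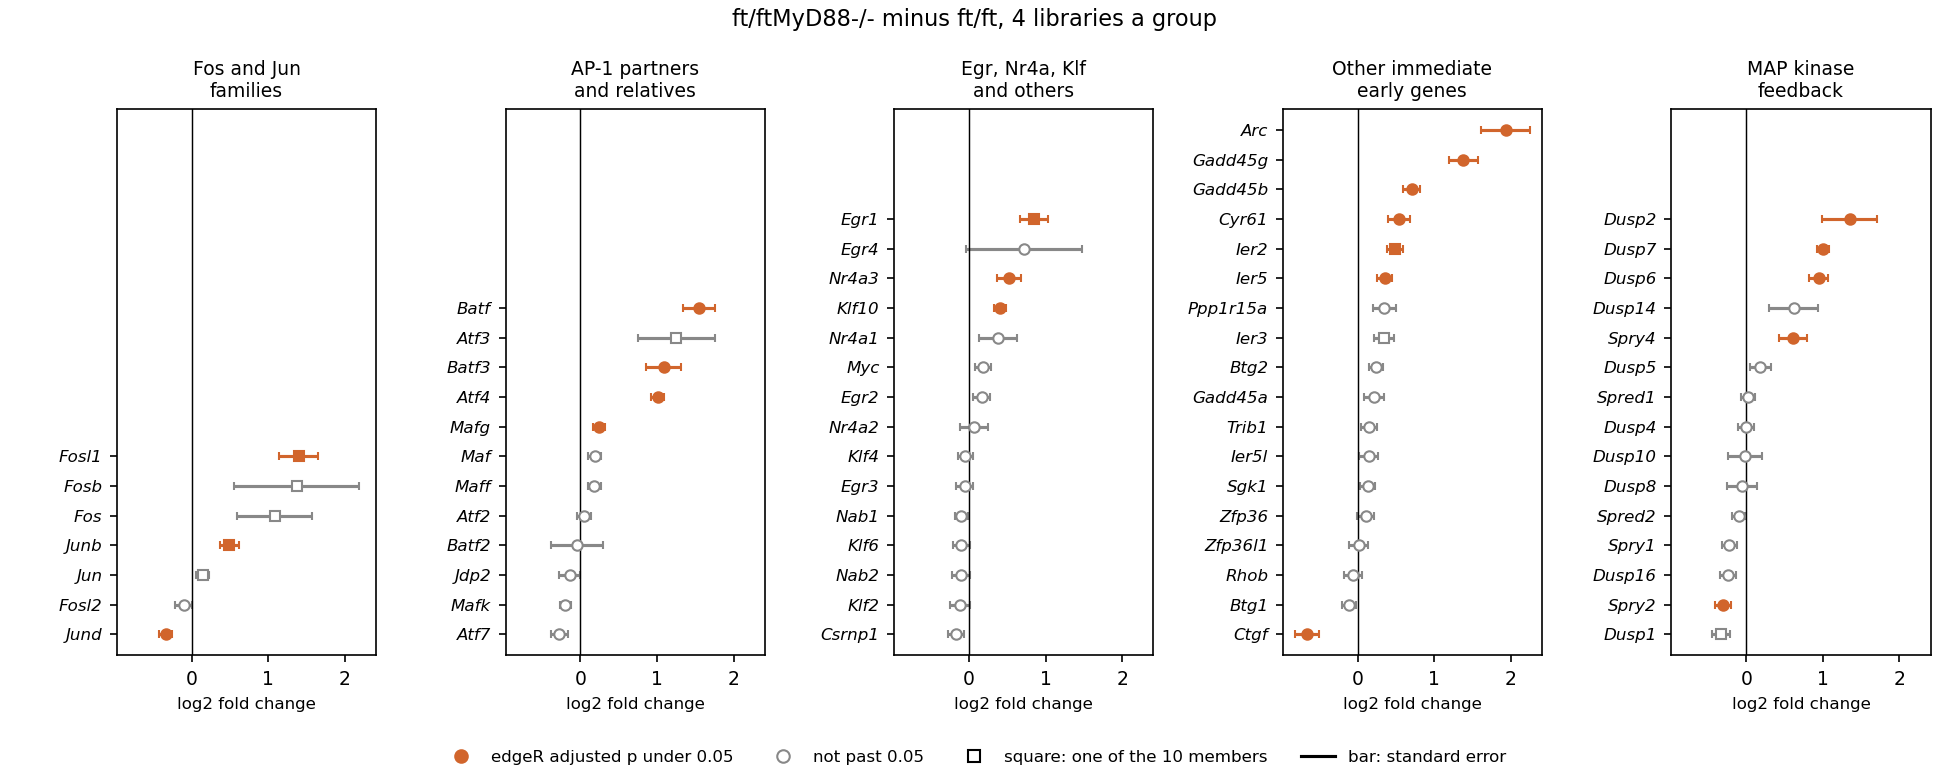
Log2 fold change of ft/ftMyD88-/- over ft/ft (x axis) with its standard error for the tested genes of 5 lists of early response genes, filled orange where the edgeR adjusted p was under 0.05, with squares for the 10 immediate early genes. *Arc* lies farthest to the right at 1.93 and *Ctgf* farthest to the left at -0.67.

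The phosphatases and Sprouty proteins that damp MAP kinases did not move as one. Of the 14 besides *Dusp1*, 4 rose and 1 fell. The ERK phosphatases *Dusp6* (37.4 to 72.1 CPM, log2 fold change 0.95, edgeR adjusted p = 3.06e-04) and *Dusp7* (59.6 to 120 CPM, 1.00, 1.47e-05), the leukocyte phosphatase *Dusp2* (6.55 to 16.7 CPM, 1.35, 0.0294) and *Spry4* (0.61, 0.0293) rose. *Spry2* fell (-0.30, 0.0465), a call lost with RLE normalization (adjusted p = 0.0573) and with library size alone (adjusted p = 0.345). Upstream, none of 17 MAP kinases, their kinases and serum response factor partners rose, and 3 fell, *Mapk3* (ERK1, -0.47, 0.00128), *Map2k6* (-0.72, 0.00988) and *Mapk9* (JNK2, -0.35, 0.0268). With library size alone 3 rose and 2 fell. *Srf* itself was at 76.2 and 80.2 CPM (edgeR adjusted p = 0.547).

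Heat shock genes, another rapid stress response, were called in shares not far from those over all genes, 10.9% higher and 12.3% lower. Of 10, the chaperones *Hspa8* (log2 fold change 0.36, edgeR adjusted p = 0.0112) and *Hsph1* (0.29, 0.0264) rose, and the inducible *Hspa1a* (-0.66, 0.0015) and *Hspb1* (-0.67, 0.00223) fell. Their summed level overlapped between the groups, at 2179 to 2302 CPM in ft/ft and 2202 to 2451 in ft/ftMyD88-/-. *Hspa1a* has a near-identical copy, *Hspa1b* (-0.24, 0.0587), so reads of these genes can be split between them. With library size alone 5 of the 10 were called higher and 2 lower, and with DESeq2 4 higher and 3 lower.

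Of 16 keratinocyte genes with known AP-1 sites, 7 rose and 2 fell. *Sprr1b*, a cornified envelope gene of stressed epidermis, rose from 14.6 to 135 CPM (log2 fold change 3.19 ± 0.66 SE, edgeR adjusted p = 0.0174). The epidermal growth factor receptor ligands *Areg* (1.34, 0.00499) and *Hbegf* (0.65, 0.0297), *Vegfa* (0.51, 0.00399), *Cd44* (0.58, 0.00303) and the matrix metalloproteinase *Mmp13* (3.04, 0.00603) rose as well. So did *Mmp10* (edgeR adjusted p = 0.015), at 0 to 3 counts in ft/ft and 2 to 29 in ft/ftMyD88-/-. The calls of *Mmp10* and *Mmp13* were lost with limma voom (adjusted p = 0.0746 and 0.0628). *Lor*, a marker of differentiated keratinocytes (4030 to 1417 CPM, log2 fold change -1.51, edgeR adjusted p = 2.3e-05), and *Krt5*, a marker of basal keratinocytes (-0.67, 0.0014), fell. *Ivl* (0.10, 0.748) and *Krt1* (-0.10, 0.702) did not pass. In bulk skin the counts of these genes are not limited to keratinocytes. The part of AP-1 or of other cell types in them was not tested.

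The genes whose log2 CPM over the 8 libraries most resembled that of *Fos*, among 13508 genes with a mean of at least 50 counts, were *Rpf1* (Pearson's r = 0.976), *Knstrn* (0.965), *Ptges2* (0.964), *Fut4* (0.955) and *Apip* (0.943). For *Fosl1* they were a gene with an RP23 clone name (0.994), *Ddx41* (0.988), *Ywhaz* (0.988), *Pinx1* (0.987) and *Bin2* (0.987). None of the other 9 immediate early genes was among the 5 nearest to *Fos*. With 8 libraries and 2 groups such values describe these libraries only.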

How the data were processed

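Periocular skin RNA of 4 ft/ft and 4 ft/ftMyD88-/- mice was analysed, and the 4 WT samples were not analysed here. The deposited unit is the raw, unscaled count of reads for each gene. The methods of the study name polyA-selected TruSeq libraries, HISAT and tophat2 alignment to GRCm38.p6 and HTSeq at default settings, whereas the labels and the submitters' processing notes of these 8 samples name total RNA, a single-cell protocol for fixed tissue, Cell Ranger and GRCm38. The default of HTSeq is stranded counting, while the named kit does not mark strand. Versions are not given in the sources used here. Columns were matched to samples by library name, and 0 columns were left unused.

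A gene entered the test when its counts in all 8 libraries together reached 10. The test was that of edgeR 4.0.16 under R 4.3.3 (TMM, glmQLFit with robust = TRUE, glmQLFTest, no covariate, two-sided, Benjamini-Hochberg adjustment over all genes tested, 0.05). Standard errors (SE) are the absolute log2 fold change divided by the root of F. Deviations and likeness used log2 CPM with a prior count of 2, and ratios used 1 added count. Replicates of a group differed by more than counting noise (chi-square per degree of freedom at least 15.1). Nothing says that libraries come from separate litters, so p-values measure the spread between these libraries.

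The members and lists were chosen with earlier results of these data known. Genes named are the 10 members, the called genes of the lists and those with the largest changes, the 5 genes most like *Fos* and *Fosl1*, *Myd88*, *Flg*, *Tmem79*, sex-linked genes and some cell type markers. Of the list of AP-1 partners, 1 gene is not reported here and was left out of its counts. List genes named for not passing were chosen after their values were seen. Alternatives were RLE, library size only, DESeq2 1.42.0, limma 3.58.1 voom, filterByExpr, no filter, the replicate number as a block and each library left out.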

Additional observations from a re-analysis of the deposited data

Results flagged for a closer look

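A library far from the other 3 of its group was found for 2 of 26 sets of 4 values (10 genes and 3 ratios in each of 2 groups), where chance gives about 1 in 20. The *Atf3* level of ft/ft replicate 2 was 14.8 CPM, against 7.47 to 8.27 in the other 3 ft/ft libraries. *Ier3* was at 50.2 CPM in ft/ftMyD88-/- replicate 3 and at 64.3 to 66.2 in the other 3 of that group.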

How the results depend on the processing

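Over 15 alternatives, the number of immediate early genes called higher ran from 4 to 6 and the number called lower from 0 to 1. Library size alone in place of TMM called 4638 of all genes higher and 1326 lower, in place of 2239 and 2525, and raised the median log2 fold change by 0.177. With each library left out in turn, 1464 to 2260 genes were called higher and 1851 to 2408 lower, and 0 to 1 of the 10 genes lower. The fewest called higher came without ft/ft replicate 4 (1464). With each library left out, the difference in the log2 ratio of *Junb* to *Jun* ran from 0.26 to 0.42 (exact p from 0.0286 to 0.0857), and that of *Fosl1* to *Fos* from 0.2 to 0.84. That of *Ier3* to *Ier2* ran from -0.23 to 6.61e-04 and turned sign without ft/ft replicate 2 (6.61e-04, exact p = 1). The causes were not tested. The replicate numbers share nothing in the labels, and deviations of equally numbered libraries correlated at -0.146 to 0.0251, with 1 of 8 libraries closest to its own number. With the replicate block 1895 genes were higher and 2144 lower, and *Ier3* passed (log2 fold change 0.35, edgeR adjusted p = 0.0394), while *Mafg* (adjusted p = 0.1), *Spry2* (0.0974), *Spry4* (0.0659) and *Hsph1* (0.0654) did not. Its exact p for the ratio of *Junb* to *Jun* was 0.125. List genes were not refitted with libraries left out. *Fosl1*, at 16 to 132 counts, is the member that depth limits most.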
